A study of Salix viminalis with 12 samples.

Results

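Proteins with a heavy-metal-associated (HMA) domain were described here in the root transcriptome of *S. viminalis*, the basket willow. Members were the contigs whose description held a phrase for heavy metal transport or detoxification, a heavy-metal-associated protein, a farnesylated protein, a copper chaperone or the copper transport protein family. The rule found 172 contigs of 86843, which is 0.198% of the assembly and 0.268% of the 64173 contigs with an Arabidopsis code. They were matched to 35 Arabidopsis genes of 13764, or 0.254% of all matched genes, and to 41 gene models. The number of contigs that carried the code of a member gene under another description was 0.

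The HMA domain is a small fold that binds a metal ion, in most members through a pair of cysteines separated by any 2 residues. In plants it occurs in short copper chaperones, which hand copper to a target protein, and in the cytosolic part of many P1B-type ATPases, which pump metals across membranes. It also occurs in the heavy metal-associated isoprenylated plant proteins (HIPPs). These carry a site near the C-terminus at which a farnesyl or similar lipid group is attached, and form a family found in vascular plants that has been linked to metal handling and to responses to drought and cold.

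The assembly was made from fine roots of cuttings of a single *S. viminalis* individual, so that all plants share a genotype. There were 12 libraries, 3 in each of 4 groups. CT plants grew in control soil under temperate conditions and CC plants in control soil in the cold. MT (temperate) and MC (cold) plants grew in soil spiked with 1.5 mg/kg Cd, 175 mg/kg Cu, 30 mg/kg Ni and 500 mg/kg Zn. Cold began after 40 days on the soil and lasted 4 weeks, at 7/5 °C (day/night) against 23/20 °C, while the sample labels name 4 °C and 22 °C. The table has 5 text columns and 0 columns with a value per library. A contig therefore shows that a transcript was assembled from the pooled reads, and not in which group it was present, and the effect of metals or cold on these genes was not tested. The values below are complete counts of that table, without replicates, and give no transcript level. Of 9 root marker genes, 7 had a contig, with 15 contigs together, and 2 had none. The most were found for SHR (6 contigs) and SCR (3 contigs), 2 transcription factors that pattern the root, and the others had 1 or 2 each. Of 5 leaf marker genes, 3 had a contig, with 7 contigs together. These were RBCS1A with 3 contigs, as many as SCR, and RCA and CAB1 with 2 contigs each. The contig counts of the markers therefore do not set root apart from leaf.

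Most members were described only by their superfamily, a wording that is itself a phrase of the rule. The phrase for heavy metal transport or detoxification covered 26 genes and 140 contigs, 81.4% of the members, with 1 to 34 contigs per gene. The copper transport protein family had 5 genes and 15 contigs, the copper chaperones 2 genes and 9 contigs, and the farnesylated proteins 2 genes and 8 contigs. The phrase heavy metal-associated matched 0 contigs. A gene symbol was listed for 3 of the 35 genes (8.57%), against 40.7% of all matched genes and all 6 P1B-type ATPases with a contig. Members were picked by the wording of their description, so this share is not independent of the rule. The descriptions name a family and the table lists no domain, so that the presence of an HMA domain was not checked. For a single gene the description goes against it. AT2G36305 (FACE2, RCE1), with 2 contigs, is a farnesylated protein-converting enzyme, a membrane protease that trims proteins after a lipid has been attached, and was caught by its phrase alone.

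The members were spread very unevenly over the genes. AT1G01490 had 34 contigs, 19.8% of all members, and ranked 94 among the matched genes, of which 0.712% had at least as many contigs. AT4G16380 followed with 20 contigs (rank 251) and AT5G50740 with 16 contigs (rank 370). All 3 are described as heavy metal transport/detoxification superfamily proteins and together held 70 contigs, 40.7% of the members. The next 13 genes, with 4 to 8 contigs each, held another 70 contigs. Of the remaining genes, 2 had 3 contigs, 9 had 2 contigs and 8 had a single contig.

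**Figure D1:**
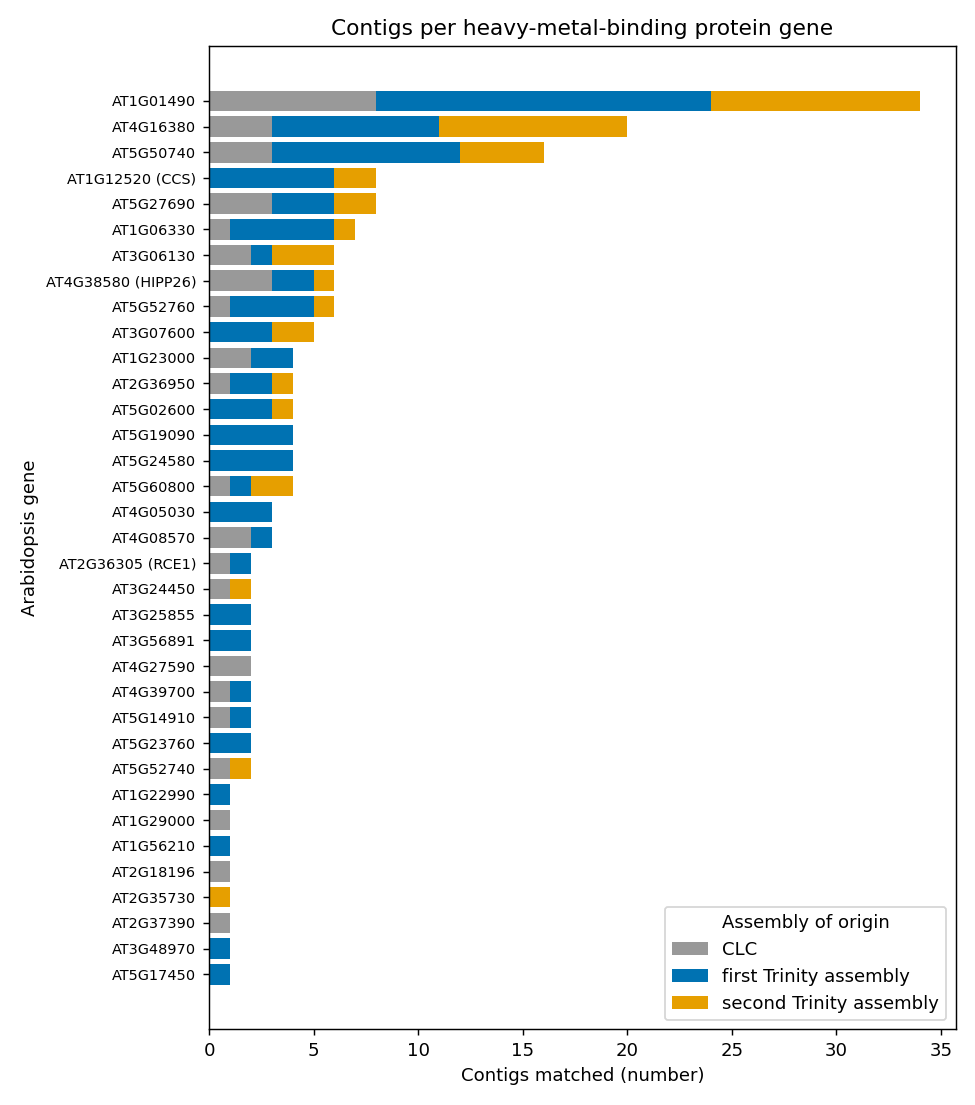
Number of contigs (x axis) matched to each of the 35 Arabidopsis genes (y axis), with the assembly of origin of the contigs as colours; the symbol is added where the table lists one. AT1G01490, AT4G16380 and AT5G50740 stand at 34, 20 and 16 contigs, and the other genes at 8 or fewer.

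The typical member gene had as many contigs as a typical gene of the assembly. The median was 3 contigs per member gene (quartiles 2 and 5.5), and also 3 over all matched genes (quartiles 2 and 5). More than 1 contig was matched to 27 of the 35 member genes, or 77.1%, near the 77.7% of all matched genes. Of the 8 P1B-type ATPases looked up, the other large group of HMA-domain proteins, 2 had 0 contigs. The 6 with a contig had a median of 5 contigs (quartiles 5 and 5.75) and all had more than 1. These sets were compared as descriptions, since genes are not replicates.

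**Figure D2:**
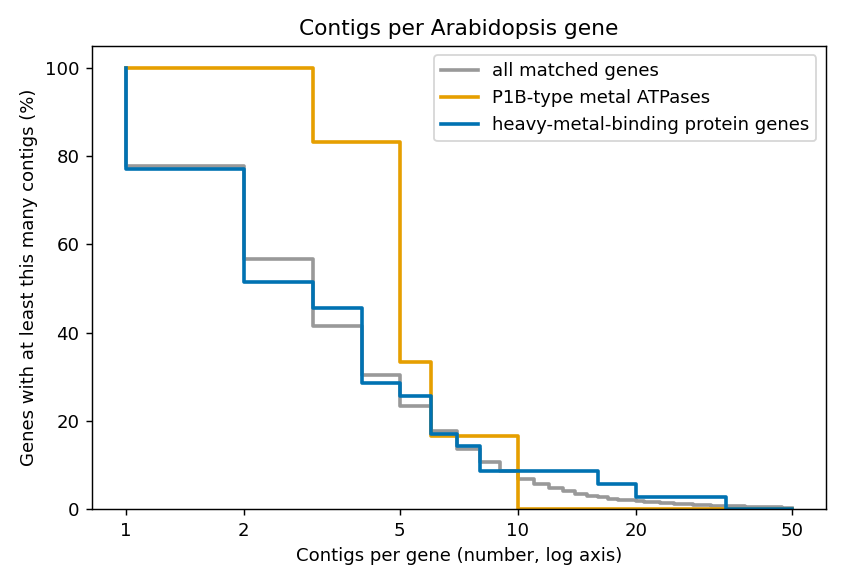
Percentage of genes (y axis) with at least a given number of contigs (x axis, log scale, shown up to 50) for the 35 heavy-metal-binding protein genes, the 6 P1B-type metal ATPases and all 13764 matched genes. The lines of the member genes and of all genes lie close together at low numbers, with 77.1% and 77.7% at more than 1 contig. They are still close at 10 or more contigs, with 8.57% and 8.74%. At 16 or more contigs the shares are 8.57% and 3.06%, where the former rests on 3 genes. That cutoff is the count of AT5G50740, the lowest of these 3, so the gap there describes these genes alone.

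Among the copper chaperones, AT1G12520 (CCS), which loads copper into Cu/Zn superoxide dismutases, had 8 contigs. Of these, 5 belonged to the same Trinity gene, the group of transcripts that Trinity assigns to a locus. All 3 superoxide dismutases looked up had contigs, with 12 contigs for CSD1, 9 contigs for CSD2 and 2 contigs for CSD3. The other member described as a copper chaperone, the chloroplast-targeted AT2G37390, had a single CLC contig. ATX1 and CCH, the small chaperones that deliver copper to ATPases in Arabidopsis, were looked up by their codes and had 0 contigs. Such a 0 says only that no contig carried the code, and not that the transcript was missing from the roots. Part of the contigs have no code. The others were annotated with *S. purpurea* as reference, and whether each code is that of the closest Arabidopsis gene was not checked. The copper-transporting ATPases of the list all had contigs, with 10 contigs for HMA5, 5 contigs for RAN1 (HMA7), 5 contigs for PAA1 (HMA6) and 6 contigs for PAA2 (HMA8). Of the 3 codes looked up for chaperones of cytochrome c oxidase, COX17 (AT3G15352) had 1 contig, AT1G02410, described as a Cox11 family protein, had 2 contigs and AT1G53030 had 0 contigs. Those with contigs are no members, because their descriptions do not hold a phrase of the rule.

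The 5 genes of the copper transport protein family had 6 contigs (AT5G52760), 3 contigs (AT4G05030) and 2 contigs each (AT3G25855, AT5G23760 and AT5G52740). Despite the name of this family, it is not that of the COPT copper transporters. Of those transporters, COPT1 and COPT5 had 2 contigs each, and the other 3 of the 5 looked up had none. Contigs of AT3G25855, AT4G05030 and AT5G23760 came from the first Trinity assembly alone.

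HIPP26 (AT4G38580), listed as farnesylated protein 6, was the only HIPP with a symbol. It had 6 contigs, 3 from CLC, 2 from the first and 1 from the second Trinity assembly. The Trinity contigs formed 1 Trinity gene in each assembly, while AT1G01490 had 10 in the first and 7 in the second. In Arabidopsis, HIPP26 binds the zinc finger homeodomain protein ZFHD1 and the acyl-CoA-binding protein ACBP2. Both had contigs, 3 for ZFHD1 and 4 for ACBP2. The β subunit of the farnesyltransferase that attaches the lipid, ERA1, also had 3 contigs. Among other metal-binding proteins, phytochelatin synthase PCS1 had 6 contigs, whereas the other 7 genes of this list, the metallothioneins and a further phytochelatin synthase, had 0 contigs, which again refers to their codes alone.

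Contigs of the same member gene lay both within and across Trinity genes. Of the 132 Trinity contigs among them, 67 (50.8%) shared a Trinity gene with another contig of the same Arabidopsis gene, close to the 49.0% of all Trinity contigs with a code and the 48.0% of the P1B-type ATPases. The other 65 shared their Trinity gene with no other contig of the same Arabidopsis gene. The 132 contigs lay in 90 Trinity genes, and the 47632 Trinity contigs of all genes in 31996. At least 1 Trinity contig was matched to 31 of the 35 genes, of which 20 had 2 or more Trinity genes and 11 had only 1. Within the first Trinity assembly, where the same locus is not counted again from another assembly, 16 genes had 2 or more Trinity genes, and within the second 7 genes had. These counts of genes were not made over all matched genes, so they describe the members without a comparison.

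The genes with the most contigs differed in how these were grouped into Trinity genes. The groups were read from contig names, and whether they are separate loci was not tested. The 26 Trinity contigs of AT1G01490 were split over 17 Trinity genes in 13 components, with at most 3 contigs in the same Trinity gene. The 17 Trinity contigs of AT4G16380 lay in 10 Trinity genes, 4 in the first and 6 in the second assembly. By contrast, the 13 Trinity contigs of AT5G50740 lay in only 4 Trinity genes, 2 in each assembly, and 6 of them in the same one. AT3G07600 was the opposite case at a smaller scale, with 5 contigs in 5 Trinity genes, 3 in the first and 2 in the second assembly. A locus can be counted in both assemblies. AT5G24580 and AT5G19090 each had 4 contigs, all from the first Trinity assembly, of which 3 shared a Trinity gene.

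**Figure D3:**
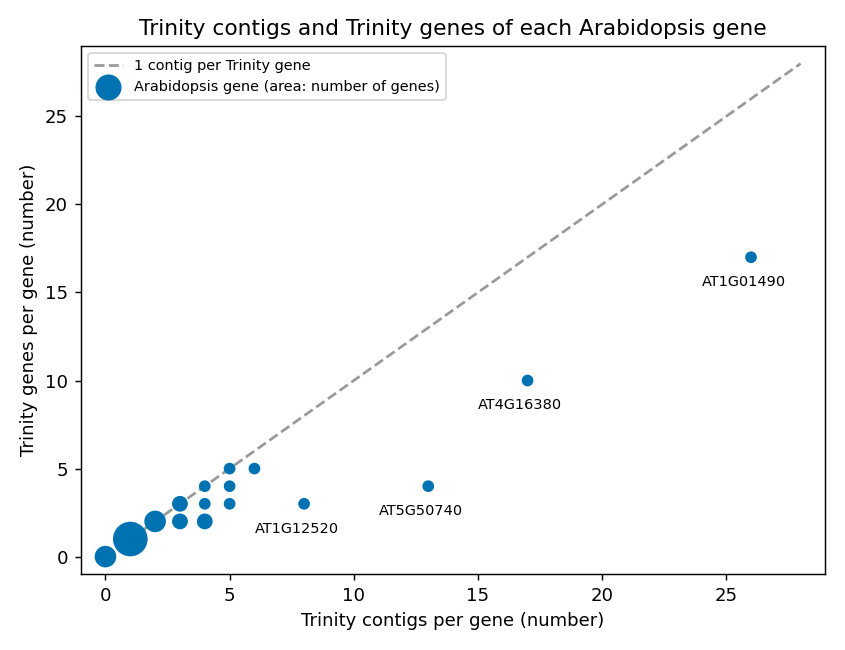
Number of Trinity genes (y axis) against the number of Trinity contigs (x axis) for each of the 35 Arabidopsis genes; the area of a point gives the number of genes at that position and the dashed line marks 1 contig per Trinity gene. AT1G01490 lies at 26 contigs and 17 Trinity genes, and AT5G50740 at 13 contigs and 4 Trinity genes.

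Gene models, given by the suffix of the Arabidopsis code, divided some of these groups further. They are models of the Arabidopsis gene and do not name willow isoforms or loci. AT1G01490 was split almost evenly, with 18 contigs on model 1 and 16 contigs on model 2, and just 1 of its 17 Trinity genes held contigs of both. AT5G50740 had 8 contigs on model 1 and 8 contigs on model 3, and 0 of its 4 Trinity genes held both. In AT4G16380, 19 contigs were on model 1 and 1 contig on model 2. Another 3 genes (AT4G27590, AT5G02600 and AT5G19090) had 2 models, and the other 29 genes a single model.

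By assembly of origin, the members resembled the rest of the contigs with a code. CLC gave 40 contigs (23.3%, against 25.8% of all contigs with a code), the first Trinity assembly 90 contigs (52.3% against 52.9%) and the second 42 contigs (24.4% against 21.4%). Contigs from all 3 assemblies were kept for 10 of the 35 genes (28.6%), near the 25.9% of all matched genes. Of these, 8 were among the 10 genes with the most contigs. This overlap is partly fixed in advance, since a gene needs at least 3 contigs to have all 3 assemblies. Only 1 contig was matched to 8 genes, and 2 contigs to 9 genes. For 15 genes (42.9%, against 34.4% of all genes) the kept contigs came from a single assembly. Of these 15 genes, 8 had only 1 contig, which can bear the name of only 1 assembly, and 7 had 2 or more contigs. Similar sequences of the merged assemblies were collapsed. A name therefore gives the source of the kept contig, and not every assembly that held the gene.

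Trinity genes and wider components that held a member together with another gene were counted for the members only. No share over all Trinity genes or components was computed, so the counts do not show whether members differ from other genes. Of the 90 Trinity genes with a member, 1 held contigs of 2 member genes, with 3 contigs of AT5G19090 and 1 contig of AT3G06130. A further 3 Trinity genes held a contig of a gene that is no member. In one of them a single transcript carried a coding sequence of CCS and another matched to CYP76C4, a cytochrome P450. The other 2 paired AT1G01490 with AT1G75760, described as an ER lumen protein retaining receptor, and with IPK1 (AT5G42810), an inositol phosphate kinase. At the wider level of the component, all names with the same assembly and DN number, 31 of 77 components (40.3%) held a gene that is no member. AT5G50740 and the farnesyltransferase subunit ERA1 shared such a component with 3 contigs each, a pair picked out after the values were seen, and lay in different subcomponents of it. All 172 members came from different parent transcripts.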

How the data were processed

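Roots of 12 libraries (CT, CC, MT and MC) were sequenced. The authors assembled the trimmed reads with CLC Genomics Workbench and Trinity, predicted coding sequences with TransDecoder, collapsed similar sequences with cd-hit-est and searched them against the *S. purpurea* transcriptome. The deposited table holds no measured values, only names and text for each contig of the assembly of all libraries, and does not show the depth of single libraries. The submitters' processing notes name edgeR (v. 3.28.1), and CC, MT and MC were not compared with CT here.

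Members were found by 5 phrases in the description, ignoring case, and codes were grouped without their suffix. Assembly, component and Trinity gene were read from contig names, and other names were taken as CLC. The members and gene lists were chosen with earlier results of these data known. The plan was to name the 10 genes with the most contigs, members with a symbol and genes of the lists with contigs. Of the 10, AT5G27690 had 8 contigs and AT1G06330 had 7 contigs. Not every list gene with contigs was named, and some other genes were named after their values were seen. Counting was tested on a simulated table of 13764 genes, of which 200 had raised counts, with 0 counted wrongly. Python (v. 3.11.15), NumPy (v. 2.4.6), SciPy (v. 1.17.1) and matplotlib (v. 3.10.9) were used.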

Additional observations from a re-analysis of the deposited data

How the results depend on the processing

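No paired analysis was possible because values of single libraries were not analysed here, and for the same reason no group comparison with edgeR or DESeq2, filter, block or left-out library was run. Alternatives without the farnesylated protein-converting enzyme, without AT1G01490, or for the assembly of origin were chosen after the values were seen. A share was taken as moved when it left the 95% exact binomial interval of the main value, a count when it changed by over 1.5 times, and a median when it changed at all. Of 37 alternative values, 25 did not move and 12 did. The values by parent transcript could not move, since each of the 172 members has its own parent transcript. The binomial interval treats genes or contigs as independent, which they are not, and served only as a fixed margin. The 25 are therefore no measure of how robust the results are.

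The number of members was 172, and 40 in CLC only, 90 in the first and 42 in the second Trinity assembly only, fewer by construction. The median of 3 contigs per gene was 1, 2 and 1.5 in these assemblies, against 1, 2 and 1 over all genes. It was 2 when Trinity genes were counted, with each CLC contig as 1 (also 2 over all genes), 3.5 without the copper phrases and 2.5 without AT1G01490. The share of genes with more than 1 contig was 42.9% in CLC only and 50% in the second Trinity assembly only, against 37.0% and 47.5% over all genes. The share of Trinity contigs that shared a Trinity gene, 50.8%, became 65.2% for components, which can hold several Trinity genes by construction. The share for components was 58.5% over all genes and 48.0% for the P1B-type ATPases.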
